A study of Bos taurus with 2 samples.

Results

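Platelet and megakaryocyte genes were followed in blood RNA of Holstein cattle (Bos taurus) on a bovine oligonucleotide microarray. The set held 10 genes known from platelet biology, and a probe was taken when the gene name on the array, or the gene of its RefSeq accession, was one of them. This gave 14 of the 43653 distinct probes and 8 of the 10 genes: PF4, PPBP, ITGA2B, MYL9, GNG11, TUBB1, TREML1 and SELP. On the whole array 16959 genes had a name. For GP9 and GP1BB no probe met the rule, and they are not analysed here. Total RNA of whole blood labelled with Cy3 was hybridised to 1 array for the low and 1 array for the high feed efficiency phenotype, called the low-efficiency and the high-efficiency array from here on. Residual feed intake, the feed eaten beyond what an animal's size and production call for, is high in the former and low in the latter. The labels give breed, tissue and phenotype, but not age, sex, diet or how many animals gave blood. Each phenotype has a single array, so differences carry no p-value and no measure of the spread between animals, and the number of arrays limits the precision.

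Platelets are cell fragments without a nucleus that megakaryocytes of the bone marrow shed into blood, and they carry megakaryocyte RNA with them. At a wounded vessel they bind collagen and von Willebrand factor through glycoprotein receptors, change shape, and join each other through the fibrinogen receptor. They also release granules filled with chemokines and clotting proteins.

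The platelet genes did not differ in one direction between the arrays. MYL9, a myosin light chain, and SELP, P-selectin, read lower on the low-efficiency array under every processing alternative run. ITGA2B and TUBB1 read lower under all but spike-in scaling, which adds 0.36 to every difference. Their probes lay below the median of all probes, a place that such a uniform shift cannot change. TREML1 and PF4 had no settled direction, and PPBP and GNG11 read slightly higher. Each difference below is a log2 value, the low-efficiency less the high-efficiency array, after each array was scaled to its own 75th percentile of probe intensity (98 on the low-efficiency and 81 on the high-efficiency array). In blood RNA, fewer platelets and less RNA per platelet cannot be told apart.

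Of the 14 member probes, 1 was 2-fold lower or more on the low-efficiency array, where 0.577% of all 22000 probes above background on both arrays were. None was 2-fold higher or more, where 0.464% of all probes were, and 13 were less than 2-fold apart. Below 0 lay 10 of the 14 member probes and 53.3% of all probes. The median was -0.17 over member probes and -0.03 over all probes. Over the 8 genes, each taken as the median of its probes, it was -0.20 against -0.04 over 10339 genes. With spike-in scaling the member median was 0.19 and that of all probes 0.33. This scaling adds the same amount to every probe, so it could not change the gap between the medians.

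All 14 member probes were above background on both arrays. The limit for background, the median of the negative control spots plus 3 robust SDs, was 10.9 on each. No member spot had saturated pixels, and 12 of the 14 were marked good on both arrays by the scanner software. The error of a single spot was read from spike-in control RNAs, each printed 32 times on an array. The SD of the log2 difference over these spots was 0.21 for the control with a median intensity of 63.5 on the low-efficiency array. It was 0.10 for those at 133.5 and 444, and 0.09 for those at 2354.5 and 10378. These SDs cover the spot and its place on the slide, and not the spread between animals. The middle 95% of all probes ran from -0.65 to 0.63, and 13 of the 14 member probes lay inside this range. How bright a probe is depends on its sequence, so intensities of different probes are not compared.

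**Figure D1:**
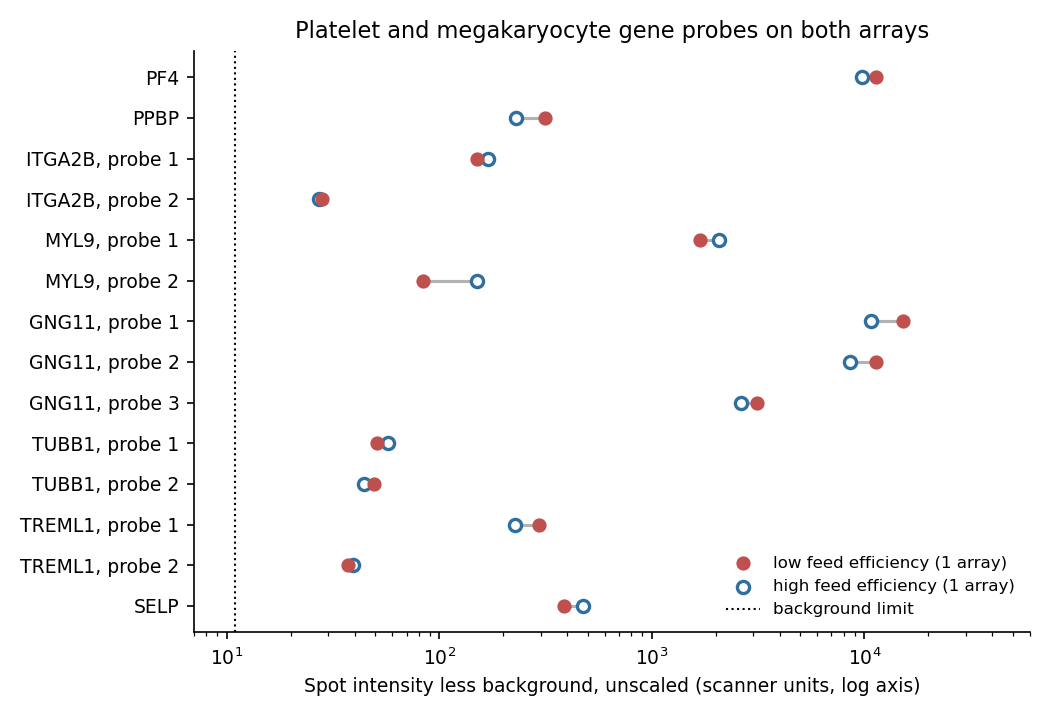
Spot intensity less background before scaling (scanner units, log axis) for the 14 probes of 8 platelet genes, filled for the low-efficiency and open for the high-efficiency array, with the background limit of 10.9 as a dotted line. Probe numbers run from the brightest to the dimmest probe of a gene; all points lie right of the limit, and the widest gap is at the dimmer MYL9 probe, with 84 against 150.

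PF4, platelet factor 4, is a granule chemokine that binds heparin. Its 1 probe (A_73_P046226) read 11351 on the low-efficiency and 9746 on the high-efficiency array before scaling. The scaled difference was -0.05, with an SD of 0.09 over control spots of like brightness. PF4 thus lay within spot error of 0, and 92.1% of all probes were as far from the median of all probes. Its difference was below 0 under 10 of the 16 alternatives and above 0 under 6, which included spike-in, quantile and loess scaling. For this 1 bright, unsaturated probe, the probe summaries, filters on signal and removal of saturated spots could only repeat the main value. The count of 10 thus overstates the agreement.

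PPBP, the precursor of the neutrophil-attracting chemokine CXCL7, is stored in the same granules. Its 1 probe (A_73_117476) read 313 on the low-efficiency and 229 on the high-efficiency array. The scaled difference was 0.18 with a control spot SD of 0.10, and 24.1% of all probes had a difference at least as high. The difference was close to the SD of 0.16 over repeated spots of bright probes. It stayed above 0 under all 16 alternatives, from 0.09 with the pixel mean to 0.53 with spike-in scaling. As for PF4, several of the 16 could only repeat the main value. PF4 and PPBP lie next to each other in the bovine annotation, and both differences were well inside the range of most probes.

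Among the surface receptors, ITGA2B is the alpha chain of the fibrinogen receptor, the integrin through which platelets join. Its brighter probe (A_73_120486) read 150 on the low-efficiency and 169 on the high-efficiency array, a difference of -0.45 (1.36-fold higher on the latter) with a control spot SD of 0.10. Its dimmer probe (A_73_P368736) read 28 and 27, a difference of -0.22 with a control spot SD of 0.21. Both lay below 0, the dimmer one by about its error. The gene median of -0.33 became 0.02 with spike-in scaling and stayed below 0 under the other 15 alternatives. ITGB3, the beta chain that pairs with ITGA2B, had a difference of 0.14 at its probe above background (56 and 42). The other two ITGB3 probes read 8 and 8, and 8 and 7, under the limit.

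SELP, P-selectin, is held in alpha granules and moves to the surface of an activated platelet, where it binds leukocytes. Its 1 probe (A_73_118647) read 386 on the low-efficiency and 472 on the high-efficiency array, so the latter was brighter even before scaling. The scaled difference was -0.57 (1.48-fold higher on the high-efficiency array), with a control spot SD of 0.10. Of all probes 3.86% had a difference as low or lower. The value stayed below 0 under all 16 alternatives, between -0.59 and -0.21, though several of these could only repeat the main value of a single probe. SELPLG, the leukocyte ligand of P-selectin, had 3 probes above 0, from 0.27 to 0.46, with the brightest at 1816 and 1092. The SELPLG gene median was above 0 under all 15 alternatives run for it.

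TREML1 encodes a receptor of platelet and megakaryocyte alpha granules that also reaches the surface on activation. Its brighter probe (A_73_120826) read 293 on the low-efficiency and 227 on the high-efficiency array, a difference of 0.09 with a control spot SD of 0.10. Its dimmer probe (A_73_P149351) read 37 and 39, a difference of -0.35 with a control spot SD of 0.21. The probes were 0.44 apart and on opposite sides of 0. The gene median of -0.13 turned positive with spike-in scaling (0.23) and when the brightest probe stood for the gene (0.09).

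MYL9 had the greatest difference of the members. It encodes a regulatory light chain of non-muscle and smooth muscle myosin, which drives the contraction of activated platelets. Its brighter probe (A_73_P046111) read 1686 on the low-efficiency and 2077 on the high-efficiency array, a difference of -0.58 (1.49-fold higher on the latter) with a control spot SD of 0.09. Its dimmer probe (A_73_P253891) read 84 and 150, a difference of -1.11 (2.16-fold higher on the high-efficiency array) with a control spot SD of 0.10. Both probes were brighter on the high-efficiency array before scaling too. Of all probes, 3.61% and 0.373% had differences as low or lower.

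The MYL9 probes differed from each other by 0.54, where the median gap between the probes of the 3001 genes with 2 measured probes was 0.17. A gap as wide was seen in 11.9% of those genes. The dimmer probe was less than 2-fold apart with normexp background correction (-0.74), without background subtraction (-0.90) and with spike-in scaling (-0.75). The gene median of -0.84 lay between -0.87 and -0.49 under the 16 alternatives, and 0.90% of all genes were as low or lower.

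Smooth muscle also expresses MYL9, and markers of vessel cells were read beside it. Of 10 endothelial and smooth muscle markers 5 were above background on both arrays: PECAM1, VWF, ACTA2, TAGLN and DES. Their summed scaled intensities were 15.21 on the low-efficiency and 20.03 on the high-efficiency array, with a median difference of -0.16. The 5 ran from -0.45 to 0.34, with 4 below the median of all genes and 1 above. The sums do not show which of the markers carried the gap between them. PECAM1 and VWF also stand in the platelet lists below, so these values do not set vessel cells apart from platelets. MYH11, the smooth muscle myosin heavy chain, and CNN1, calponin, were under the limit on both arrays by every probe, at readings from 0 to 8. The endothelial genes CDH5, TEK and KDR were under it too. ACTA2, smooth muscle actin, had -0.39 (210 and 228), below 0 under all 15 alternatives. TAGLN, transgelin, had 0.34 (26 and 17), above 0 under 12 of 13. The part of vessel cells in the MYL9 difference was not tested.

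MYL12A and MYL12B encode light chains closely related to MYL9, and probes of such genes can share sequence. MYL12A had -0.08 (4048 and 3528), below 0 under 10 of 15 alternatives, and MYL12B had 0.22 (82 and 58), above 0 under all 14. MYLK, the kinase that activates the light chain, had 0.14, from probes at 0.13 and 0.15.

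TUBB1 encodes the beta tubulin of the microtubule ring that holds the platelet's disc shape. Its probe A_73_P286311 read 51 on the low-efficiency and 57 on the high-efficiency array, a difference of -0.44. Its probe A_73_106849 read 49 and 44, a difference of -0.12, and the control spot SD was 0.21 for both. The first lay below 0 by about 2 of these SDs and the second within 1. The gene median of -0.28 became 0.08 with spike-in scaling and stayed below 0 under the other 15 alternatives. TUBA4A, an alpha tubulin found in platelets, had -0.42 and -0.49 at its 2 probes (8574 and 9503, 592 and 685), with a gene median below 0 under all 15 alternatives.

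GNG11 encodes a gamma subunit of the G proteins that carry receptor signals. Its 3 probes read 15225, 11314 and 3111 on the low-efficiency array and 10797, 8521 and 2637 on the high-efficiency array. The differences were 0.22, 0.13 and -0.04, with a control spot SD of 0.09 for each. The brighter probes were above 0 by more than the control spot SD, and the third was within it. Only the brightest exceeded the SD of 0.16 over repeated spots of bright probes. The brighter spots were each marked good on 1 array and unmarked on the other. With spots marked good on both arrays, the remaining probe gave 0.006, and the gene median of 0.13 stayed above 0 under all 16 alternatives. The range over the probes, 0.26, was near the median range of 0.30 for the 1306 genes with 3 measured probes.

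**Figure D2:**
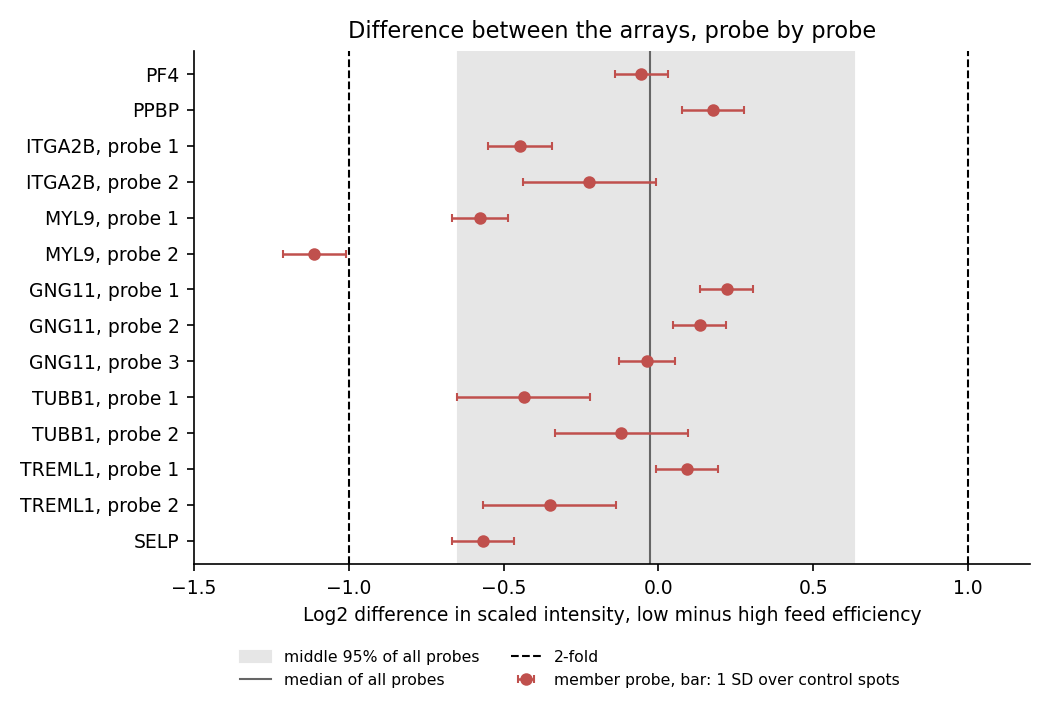
Log2 difference of scaled intensity, low-efficiency less high-efficiency array, for each of the 14 probes (1 array per group), with bars of 1 SD over 31 or 32 spots of the spike-in control nearest in brightness, a grey band for the middle 95% of all 22000 probes and dashed lines at 2-fold. The MYL9 probes are at -0.58 and -1.11 and SELP is at -0.57, while PPBP and the brighter GNG11 and TREML1 probes lie right of 0; with spike-in scaling PF4, the dimmest GNG11 and TREML1 probes and 1 probe each of ITGA2B and TUBB1 change sides.

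The difference varied with signal, so the members were also set against probes of like brightness, with all probes cut into 5 bands of equal size by intensity. In the brightest band the median difference was -0.10, against 0.02 in the second dimmest. Relative to their own band, 8 of the 14 member probes lay below the median and 6 above, where 49.9% of all probes lay below. Those above were PF4 (0.05), PPBP (0.20), the 3 GNG11 probes (0.32, 0.23 and 0.06) and the brighter TREML1 probe (0.12). Those below were both probes of ITGA2B (-0.43 and -0.25), MYL9 (-0.47 and -1.11) and TUBB1 (-0.46 and -0.14), SELP (-0.54) and the dimmer TREML1 probe (-0.38). The split of the probes was thus as against all probes, except that PF4 and the dimmest GNG11 probe moved above the median. Within their bands, 1.66% of probes were as low as SELP, and 2.80% and 0.25% were as low as the MYL9 probes.

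**Figure D3:**
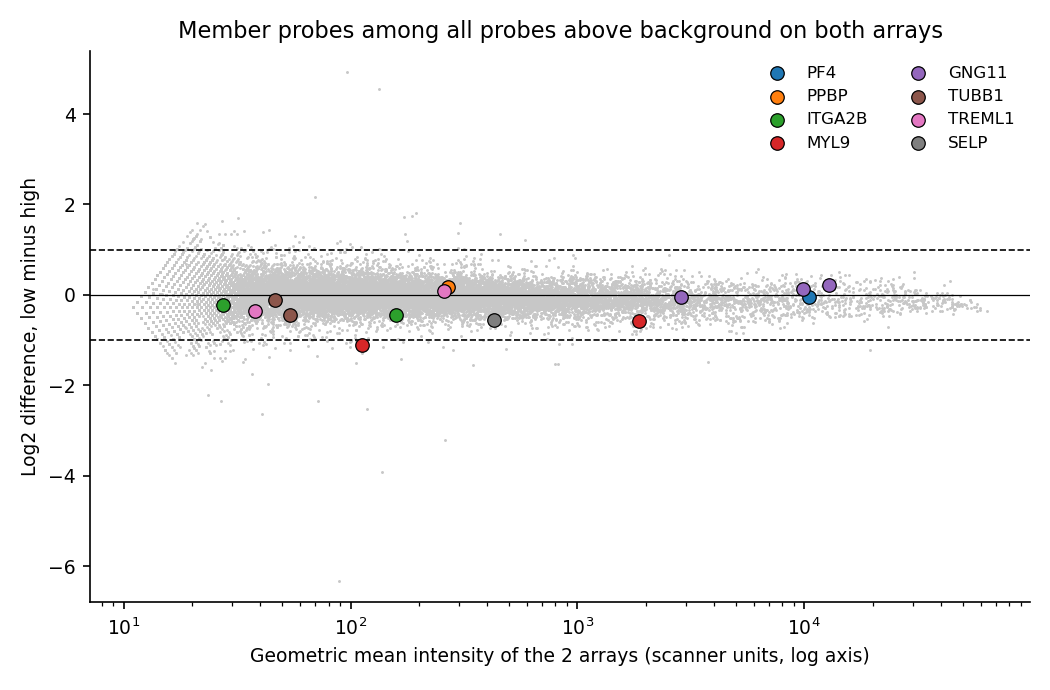
Log2 difference (low-efficiency less high-efficiency array) against the geometric mean intensity of both arrays (log axis) for the 22000 probes above background on both, grey, with the 14 member probes coloured by gene and dashed lines at 2-fold. The dimmer MYL9 probe at -1.11 lies past the lower dashed line, which it does not with normexp, with no background subtraction or with spike-in scaling, and the other members lie inside the lines.

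Place on the slide moved some of these values by about 1 control spot SD. The median difference of the 208 to 243 probes within 10 rows and 10 columns of a member spot ran from -0.10 to 0.03. After this median was taken off, the MYL9 probes had -0.48 and -1.14, SELP -0.52 and the brighter ITGA2B probe -0.48. The middle GNG11 probe went from 0.13 to 0.23, and the dimmest from -0.04 to 0.05. Scaling on the spike-in controls moved the median of all probes by 0.36. Relative to the median of all probes, 8 member probes stayed below and 4 stayed above under all alternatives that measured them, and PF4 and the dimmest GNG11 probe took either side. The authors' deposited table, read with its rows realigned, gave -0.44 and -1.03 for the MYL9 probes, -0.46 for SELP, 0.05 for PF4 and 0.19 for PPBP.

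**Figure D4:**
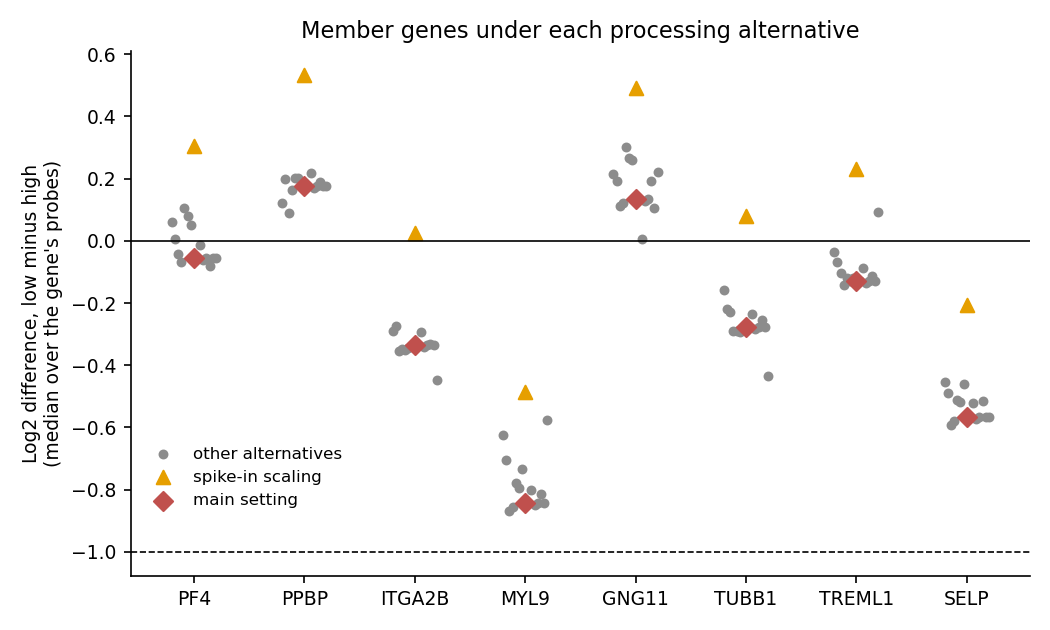
Log2 difference of each member gene (median over its probes, low-efficiency less high-efficiency array) in the main setting (diamond), with spike-in scaling (triangle) and under the other 15 alternatives (dots). MYL9 and SELP stay below 0 and PPBP and GNG11 above 0 throughout, while PF4 and TREML1 are on both sides, and ITGA2B and TUBB1 cross 0 with spike-in scaling alone, which adds 0.36 to every gene.

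Other genes of platelet biology were read from 6 lists. Of all 10339 genes, 0.29% were 2-fold higher or more on the low-efficiency array and 0.493% were 2-fold lower or more, and by definition 50% lay below the median of all genes. Of 10 measured surface receptor genes none was 2-fold apart, 5 lay below the median of all genes, and the list median was -0.04. GP1BA, the chain of the von Willebrand factor receptor that partners GP9 and GP1BB, lay farthest from the median of all genes with -0.47, near the limit at 14 and 16, and the other two GP1BA probes were under it. Of 22 genes of agonist receptors and signalling none was 2-fold apart, 9 lay below the median of all genes, and the list median was 0.004. FERMT3, kindlin-3, which switches platelet integrins on, was farthest with -0.78, from probes at -0.45 (1385 and 1559) and -1.11 (19 and 34). P2RY12, an ADP receptor, had 0.42, above 0 under all 15 alternatives. P2RY1, also an ADP receptor, had -0.51, from probes at -0.38 (53 and 57) and -0.63 (46 and 59), below 0 under all 15. The ADP receptors thus went in opposite directions. Both were named for their role after their values were seen, as were SELPLG, ITGB3, MYLK, MYL12A, MYL12B, TUBA4A, CLU, CCL5, NFE2, RUNX1, FLI1, GATA1 and the vessel cell genes.

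Of 26 measured genes of granule content and release none was 2-fold apart, 20 lay below the median of all genes and 6 above, and the list median was -0.18. ECM1, an extracellular matrix protein, was farthest with -0.76 (110 and 154), though its other probe, above background on the low-efficiency array alone, read 17 and 8. CLU, clusterin, was below 0 at each of 4 probes, from -0.79 to -0.43 (2134 and 2418 at the brightest), and its gene median was below 0 under all 15 alternatives. Of 35 cytoskeleton genes none was 2-fold apart, 22 lay below the median of all genes and 13 above, with a list median of -0.07. CLDN5, a tight junction protein, was farthest with -0.78, near the limit at 12 and 17.

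Of 24 genes of megakaryocyte transcription and growth signals none was 2-fold higher and 1 was 2-fold lower, with 13 below the median of all genes and a list median of -0.16. The 1 was ERG at -3.14, and its probes conflicted, at 11 and 725 for one and 20 and 16 for the other. GATA1, which drives megakaryocyte and red cell genes, had -0.59 (58 and 72), below 0 under all 14 alternatives. NFE2, which drives platelet release, had 0.18 (14858 and 10821), above 0 under all 14. FLI1, another megakaryocyte factor, had -0.02, with either sign across alternatives. RUNX1 had 0.73 (24 and 12), above 0 under 12 of 13, with the high-efficiency reading near the limit of 10.9.

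Of 8 measured genes of a list of CXC chemokines and their receptors, which also holds CCL5, none was 2-fold apart and 6 lay below the median of all genes, with a list median of -0.24. CXCL8, a chemokine of the same family as PF4 and PPBP, was farthest with -0.78, from 3 probes between -0.94 and -0.70 (122 and 173 at the brightest). CCL5, a chemokine of T cells that platelets also store, had 3 probes between -0.46 and -0.39 (7903 and 8829 at the brightest). Both were below 0 under all 15 alternatives.

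**Figure D5:**
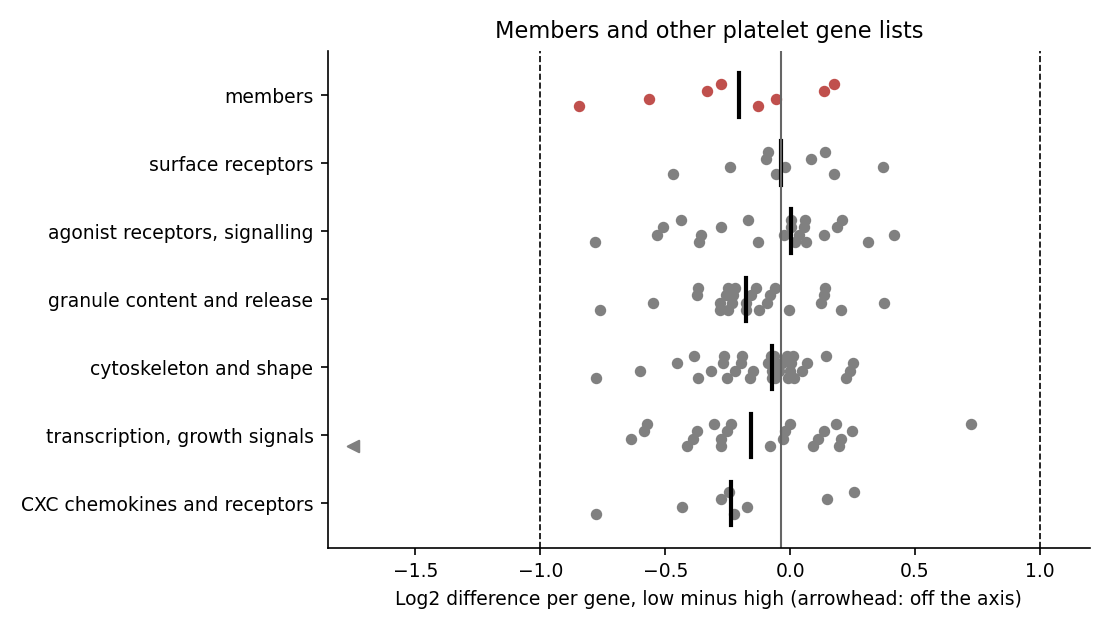
Log2 difference per gene (median over its probes above background, low-efficiency less high-efficiency array) for the 8 members (red) and 6 other lists (grey), with list medians as black bars, the median of all genes as a thin line and 2-fold as dashed lines. List medians lie between -0.24 and 0.004, the members' is -0.20, and ERG at -3.14 is drawn as an arrowhead; spike-in scaling moves the median of all probes by 0.36.

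Whole blood holds other cells, and their markers were read on the same scale. Neutrophil markers (11 of 12 measured) had a median of 0.10, with summed scaled intensities of 789 on the low-efficiency and 692 on the high-efficiency array. The sums were 57.8 and 75.7 for natural killer markers (6 of 7, median -0.33), 202 and 227 for monocyte markers (8 of 8, -0.21), and 166 and 195 for T cell markers (10 of 10, -0.12). They were 68.4 and 74.6 for B cell markers (7 of 8, -0.12), 456 and 403 for erythroid markers (8 of 12, median 0.05), and 2.88 and 4.04 for eosinophil, basophil and mast cell markers (3 of 9, -0.19). Of the 8 measured erythroid markers 5 lay above the median of all genes and 3 below. ALAS2, the first enzyme of heme synthesis in red cells, was the only 1 at least 2-fold apart. It had -1.42 (112 and 248), below 0 under all 14 alternatives. EPB42, a red cell membrane protein, was above background on the high-efficiency array alone. This held for 2 of its 3 probes, near the limit (9 and 11, 7 and 14). ALAS2 and EPB42 were named after their values were seen. Platelet markers (6 of 11), among them the members PF4, PPBP, ITGA2B and TUBB1, had a median of -0.17 with sums of 121 and 126. PF4 alone made up 115.8 and 120.3 of these sums, so they say little of the other platelet markers. GP5, a glycoprotein of the von Willebrand factor receptor, was under the limit on both arrays. The part of cell composition in the platelet gene differences was not tested.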

How the data were processed

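Single-colour intensities came from a GenePix 4000B scanner with GenePix Pro 6.1.0.4, per the file headers, while Agilent Feature Extraction stands in the submitters' processing notes. The deposited intensity is the pixel median less the mean of negative controls in the block, per the file headers. The scanner software also gave the percent of pixels that were saturated, per the file headers. A flag score (100 good, 0 none, -50 not found) was set by the scanner software, per the file headers. Both arrays came from 1 slide and 1 scan. An Agilent processed signal had been planned, and the GenePix intensity was used in its place. The authors' deposited table holds log2 values of unstated normalization. Its column medians were 4.34 and 4.34, and it matched the scanner values after its rows were moved by 1 (Spearman's rho 1.00 on both arrays, against 0.077 and 0.072 unmoved).

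Control spots and 558 bright spots marked not found were left out (43096 probes kept), and repeated spots were averaged. Names came from a RefSeq gene table (ARS-UCD2.0, names only): 26743 probes matched by accession, 5971 by symbol and 141 by synonym, 1662 carry the name on the array alone and 9136 are unnamed. Alternatives used limma 3.58.1 (normexp with an offset of 50, quantile, loess), the pixel mean, other scalings, filters, flags, probe summaries and a 1.5-fold threshold, and the place on the slide was added after seeing the data. Members and lists were chosen with earlier results of these data known. The rule for named genes took all members and, per list, up to 3 genes 2-fold apart or more, or else the one farthest from the median of all genes. Values of some listed genes are not reported here.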

Additional observations from a re-analysis of the deposited data

How the results depend on the processing

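No paired analysis was possible because each group has 1 array, and for the same reason no replicate could be left out. The count of member probes 2-fold higher or more was 0 under all 15 alternatives. The count 2-fold lower or more, 1 in the main setting, was 0 with normexp background correction, 0 without background subtraction and 0 with spike-in scaling, and 1 under the other 12. For both counts, the 15 alternatives include a threshold of 1.5-fold in place of 2-fold. The filters on signal and on saturated spots could not change any member value, since all member probes passed them. The median difference of member probes moved with spike-in scaling to 0.19, by more than the SD over repeated spots of dim probes (0.23), and lay between -0.24 and -0.11 under the other 13. Of 128 differences of single member genes under alternatives, 105 stayed within the spot error of the main value and 23 moved by more. The cause was not tested. Part of the 105 could only repeat the main value, so this count overstates the agreement. These were the values under the filters on signal and saturated spots and the probe summaries of genes with 1 probe. The mean over probes of genes with 2 probes, which equals their median, was also among them. Over all probes, 102 were higher and 127 lower in the main setting. These counts were 45 and 70 with normexp, 12 and 24 without background subtraction, 535 and 29 with spike-in scaling, 36 and 52 above 2 times the background limit, 29 and 26 with spots marked good, and 2790 and 2605 with every positive signal. Low signal limits ITGA2B, TREML1 and TUBB1, whose dim probes lay at 2.48 to 5.23 times the background limit.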
